A study of Mus musculus with 3 samples.

Results

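The interferon regulatory factor (Irf) genes described here are Irf1, Irf2, Irf3, Irf4, Irf5, Irf7, Irf8 and Irf9. They were chosen by name, and these 8 genes are part of the 36864 gene names with a value on all 3 arrays once outlier spots were left out. Each of the 8 genes is read by 2 different probes printed once, and all 16 probes were kept. RAW264.7, a mouse macrophage cell line, was stimulated with LPS, the bacterial cell wall component that TLR4 recognises, and RNA was taken 3 h later. The first group had LPS alone, the second had the Lactiplantibacillus plantarum strain LOC1 from tea leaves before LPS, and the third had the L. plantarum strain LOC3 before LPS. Lactobacilli were present for 12 h in the series' design and for 24 h in the methods, and LPS was used at 50 ng/mL in the methods and 100 ng/mL in the results. Each group is 1 array of 1 cell line, so no SD between cultures, test or p-value can be given. Unchallenged macrophages enter only through the deposited ratios, since their array is not used here.

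Irf proteins are transcription factors that share a DNA-binding domain and recognise the interferon-stimulated response element (ISRE). Downstream of TLR4, kinases phosphorylate Irf3 and Irf7, which then switch on the interferon beta and alpha genes. Secreted interferon acts back on the cell through a complex that holds Stat2 and Irf9, which raises many antiviral genes, Irf7 among them, while Irf1 and Irf8 are also macrophage genes that respond to interferon gamma.

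The sequences next to the gene starts are shown because interferon-responsive genes are commonly read through 2 kinds of site. Promoter windows from RefSeq (GRCm38.p6), from 250 bases before to 50 bases after a gene start, were found for 8 of the 8 genes, in 11 windows. The 3 motifs were searched on both strands, each as a pair of short blocks: GAAA and GAAA with 2 bases between them, an ISRE core, GGGA and TTCC with 2 bases between them, an NF-kB motif, and TTC and GAA with 3 bases between them, the gamma-activated sequence (GAS). The GAS letters read the same on either strand, and none of the printed matches overlapped. GAS letters were in 3 of the 11 windows, beside 8.3% of all 32851 windows, and the ISRE core letters were in 1 of the 11, beside 3.44% of all. The NF-kB letters were in 0 of the 11 windows, beside 1.47% of all. The stretches of 60 bases that hold the matches are given with the matches in capitals, at chr11:53769898-53769957 for Irf1, chr8:120736170-120736229 for Irf8 and chr8:46739495-46739554 for Irf2, each on the + strand of GRCm38.p6.
Irf1: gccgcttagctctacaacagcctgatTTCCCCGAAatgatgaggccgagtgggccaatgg
Irf8: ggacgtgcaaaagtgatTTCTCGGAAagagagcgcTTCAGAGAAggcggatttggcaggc
Irf2: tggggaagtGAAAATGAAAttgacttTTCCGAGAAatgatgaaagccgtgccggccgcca
The GAS match of Irf1 began 90 bases before the gene start. Irf8 held a pair of GAS matches, beginning 171 and 153 bases before its start. In Irf2 the ISRE core letters began 241 bases before the start and the GAS letters 224 bases before it. A match describes the letters of the window, and binding was not measured.

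Probes of 4 of the genes are also shown, because the results below turn on which probe of a gene was read. By their mm9 positions, the dimmer probes of Irf1 and Irf7 cover 146 and 351 bases of genome with 60 bases of sequence, so each reads across a gap. For Irf8 and Irf2 the files give the 2 probes different transcripts, and the first 30 bases of each are given.
Irf1, dimmer probe: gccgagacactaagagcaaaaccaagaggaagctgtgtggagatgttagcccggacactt
Irf7, dimmer probe: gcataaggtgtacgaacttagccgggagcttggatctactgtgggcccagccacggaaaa
Irf8, brighter probe: aacagacagggtcgacagagtgtgtgatac
Irf8, dimmer probe: ctggcctttgcttaaagcacaagctttgga
Irf2, brighter probe: atattatgcaaattcccagatctgaagacg
Irf2, dimmer probe: ccagacaccagcttgtatctaagactgtga

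Values are intensities, background-subtracted by the authors with Feature Extraction. Differences are of log2 intensity after the 75th percentile of each array was subtracted, which lay at 554.8 on the LPS array, 513.2 on the LOC1 array and 516.3 on the LOC3 array. The percentage of probes well above background was 51.9%, 50.4% and 47.8% on the 3 arrays in that order. Whether the arrays shared a slide or a scan is not given here. Probes printed 10 times on each array gave the technical SD of a difference as 0.06 for bright probes. For dim probes, those over 2-fold under the 75th percentile on either array, it was 0.29 for LOC1 against LPS and 0.33 for LOC3 against LPS. This is spot noise only and holds no variation between cultures. All 8 macrophage markers examined, Csf1r and Adgre1 among them, were well above background on every array, while Ncr1 of natural killer cells was on none. Cd3e of T cells, at an intensity of 396.0 to 451.4, and Col1a1 of fibroblasts, at 38.6 to 53.9, were on all 3. Cd209a of dendritic cells, at 26.1, and Epcam of epithelium, at 20.7, were well above background on the LPS array alone. With bulk RNA, fewer cells with a transcript and less of it per cell cannot be told apart.

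With either strain before LPS, Irf7, Irf1 and Irf5 were somewhat higher than with LPS alone on both probes, Irf8 was lower on both probes, and Irf3 and Irf9 lay close to the LPS array. Irf4, dim throughout, was at least 2-fold lower with both strains. By the brighter probe of each gene, 0 of the 8 genes were at least 2-fold higher with LOC1, beside 2.49% of the 20018 genes compared, and 1 was at least 2-fold lower, beside 3.81%. With LOC3, 0 of the 8 were at least 2-fold higher, beside 2.97% of 19789 genes, and 1 was at least 2-fold lower, beside 3.18%. By any amount, 4 of the 8 were higher with LOC1, where 50.1% of all genes were, and 5 with LOC3, where 54.0% of all genes were. The median difference of the 8 genes was 0.10 with LOC1 and 0.16 with LOC3, beside 0.00 and 0.03 over all genes. Counted by probes, 3 of the 15 with a value were at least 2-fold lower with LOC1, beside 4.39% of all probes, and 3 with LOC3, beside 3.86%. These 3 probes were the brighter one of Irf4 and the dimmer ones of Irf2 and Irf8, each with a dim signal on at least 1 array. Unequal probes were not particular to Irf2 and Irf8, since genes of the lists below had them too. With LOC1, Mx2 was at 0.45 on its brightest probe and -1.49 on its lowest, and Irak2 at 0.17 and -1.01. Ly96 went the other way, at -0.58 on its brightest probe and 0.59 on its highest.

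**Figure D1:**
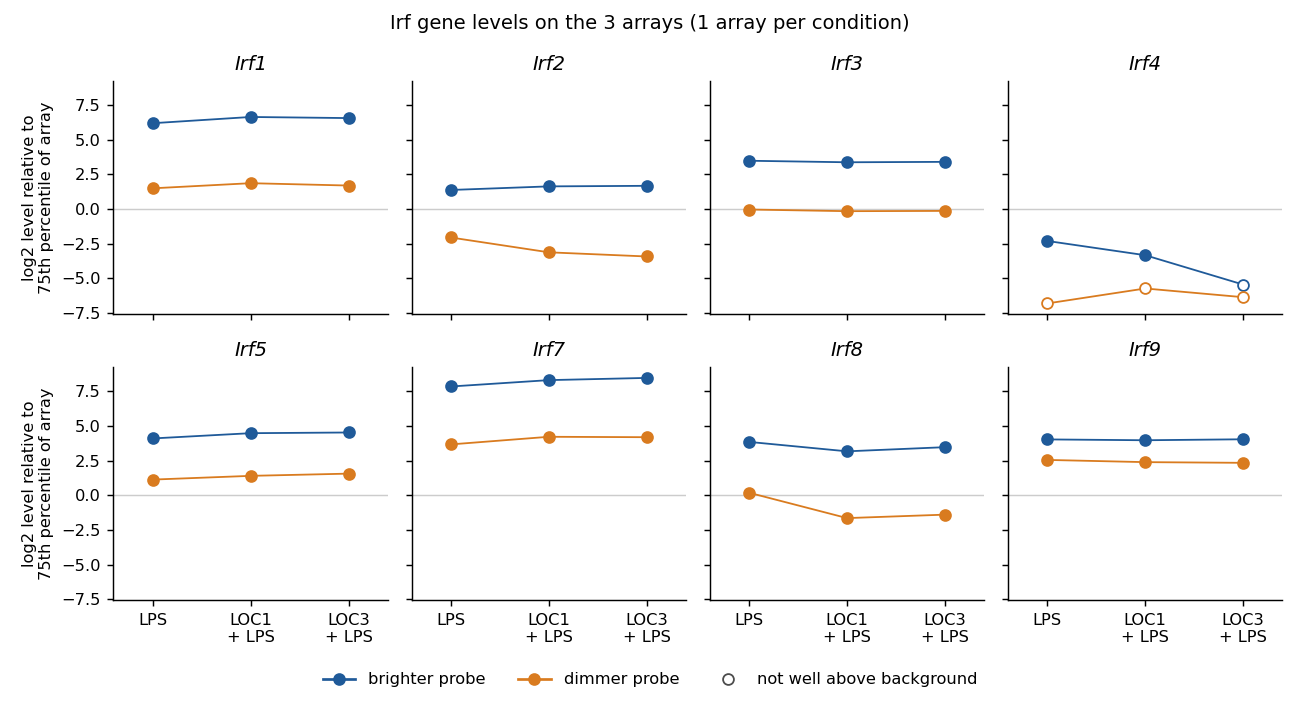
Levels of the 8 Irf genes on the 3 arrays, as log2 intensity relative to the array's 75th percentile (y axis), for the brighter (blue) and dimmer (orange) probe of each gene. Levels of different probes are not comparable with each other. Lines are nearly level for Irf3 and Irf9 and run downward for the dimmer Irf2 probe. Both Irf8 probes are lower with either strain than with LPS, and lowest with LOC1. The brighter Irf4 probe reaches an open circle, a signal not well above background, with LOC3.

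**Figure D2:**
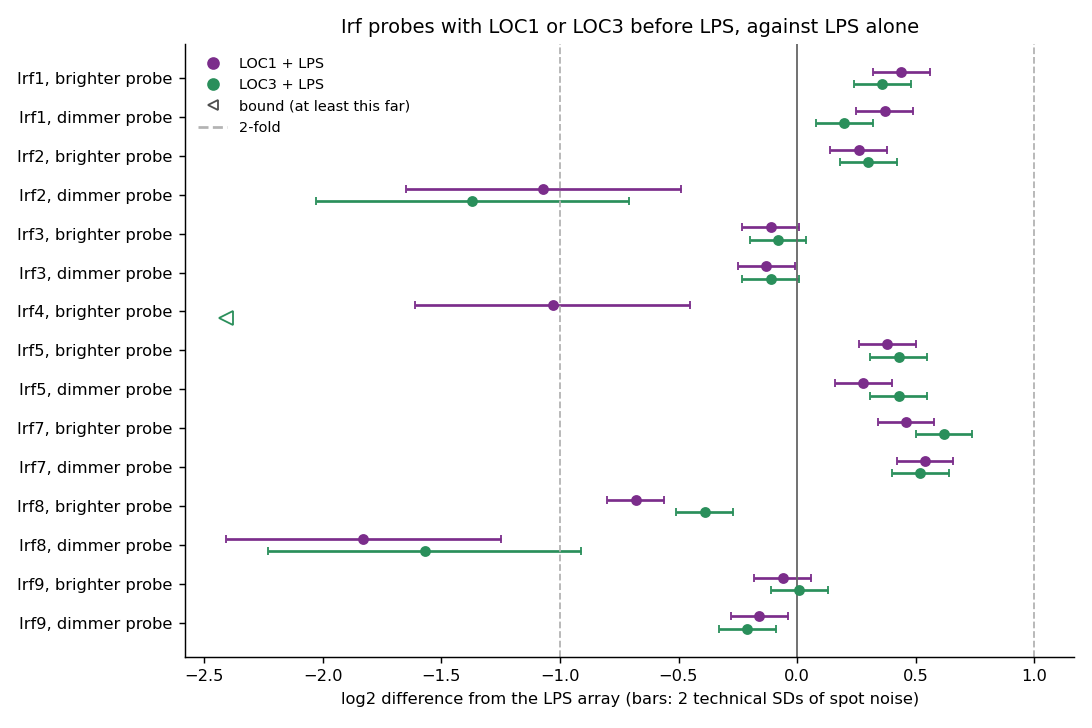
Log2 difference from the LPS array (x axis) for the 15 Irf probes with a value, with LOC1 (purple) and LOC3 (green) before LPS and bars of 2 technical SDs of spot noise. Points of Irf1, Irf5 and Irf7 lie above 0 and under the 2-fold line, those of Irf8 lie below 0, and the open triangle of Irf4 is a bound. Points of Irf3 and Irf9 lie near 0, on the other side of it for the brighter probes under median scaling, except Irf9 with LOC3, which lies at 0.01.

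Among the inducers of interferon, Irf7 and Irf3 stood apart from each other. Irf7, whose own gene is raised by interferon and which drives the interferon alpha genes, is read by probes of NM_016850 at chr7:148449104-148449163 and chr7:148450664-148451014 (mm9, - strand). The brighter Irf7 probe gave intensities of 129038.3 on the LPS array, 163950.9 after LOC1 and 184848.4 after LOC3. Its difference from LPS was 0.46 with LOC1, a 1.37-fold higher level, and 0.62 with LOC3, a 1.54-fold higher level. The dimmer Irf7 probe read 7129.5, 9616.5 and 9506.5 on the arrays in the same order. It was higher by 0.54 with LOC1 and by 0.52 with LOC3. Both probes were thus above the LPS array by over 7 times the technical SD, and of all genes compared 11.6% were higher by more than Irf7 with LOC1 and 6.96% with LOC3. Between the strains, Irf7 differed by -0.16 on the brighter probe and 0.03 on the dimmer one (LOC1 minus LOC3), so the probes did not give 1 order.

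Irf3, which is present before stimulation and acts once it is phosphorylated, is read by probes of NM_016849 at chr7:52257700-52257759 and chr7:52255810-52255869 (mm9, + strand). The brighter Irf3 probe gave intensities of 6223.2 on the LPS array, 5345.1 after LOC1 and 5479.5 after LOC3, and the dimmer one read 545.1, 462.0 and 471.0. The difference of the brighter probe was -0.11 with LOC1 and -0.08 with LOC3, and became 0.11 and 0.10 when arrays were scaled to their medians. Median scaling moved the middle of all genes to 0.22 in both comparisons, so Irf3 stayed below that middle. The dimmer Irf3 probe differed from LPS by -0.13 and -0.11. All 4 differences were within about 2 technical SDs of 0.

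Irf5, which acts with the adaptor Myd88 to induce inflammatory cytokines, is read at chr6:29486901-29486960 for NM_012057 and at chr6:29491799-29491858 for NM_001311083 (mm9, + strand). The brighter Irf5 probe gave intensities of 9609.2 on the LPS array, 11551.9 after LOC1 and 12007.4 after LOC3. The dimmer one read 1220.3, 1366.8 and 1533.9 in the same order. The LPS array was the lowest and the LOC3 array the highest on both probes. The brighter Irf5 probe was higher by 0.38 with LOC1 and 0.43 with LOC3, and the dimmer one by 0.28 and 0.43.

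Irf9, the DNA-binding part of the complex with Stat2 that forms after interferon binds its receptor, is read at chr14:56228806-56228865 for NM_001159417 and at chr14:56228256-56228315 for NM_008394 (mm9, + strand). The brighter Irf9 probe gave intensities of 9121.7 on the LPS array, 8112.3 after LOC1 and 8573.3 after LOC3, and the dimmer one read 3275.2, 2702.1 and 2634.0. The difference of the brighter probe was -0.06 with LOC1 and 0.01 with LOC3, and 0.16 and 0.20 under median scaling. On the 75th-percentile scaling the dimmer probe differed by -0.16 and -0.21, past 2 technical SDs. On the brighter Irf9 probe, then, the arrays differed by about the spot noise on the 75th-percentile scaling and by more on the median scaling.

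Irf1 and Irf2 are a classical pair, in which Irf1 activates and Irf2 mostly opposes it at the same sites. Irf1 is read by probes of NM_008390 at chr11:53590746-53590805 and chr11:53587446-53587591 (mm9, + strand). The brighter Irf1 probe gave intensities of 40861.5 on the LPS array, 51359.5 after LOC1 and 48896.1 after LOC3. The dimmer probe read 1565.1, 1871.2 and 1672.9. LOC1 was the highest and LPS the lowest on both probes of Irf1, whose promoter window holds 1 GAS match. Irf1 was higher than with LPS by 0.44 with LOC1, a 1.36-fold higher level, and by 0.36 with LOC3, a 1.29-fold higher level, and by 0.37 and 0.20 on the dimmer probe. LOC1 exceeded LOC3 by 0.08 on the brighter probe and by 0.17 on the dimmer one, against a technical SD of 0.06.

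The 2 probes of Irf2 went opposite ways. The brighter Irf2 probe, of NM_008391 at chr8:47932486-47932545 (mm9, + strand), gave intensities of 1444.1 on the LPS array, 1596.4 after LOC1 and 1659.0 after LOC3. It was higher by 0.26 with LOC1 and 0.30 with LOC3. The dimmer Irf2 probe, of ENSMUST00000208976 at chr8:47893357-47893416, read 134.0, 59.1 and 48.3. This dimmer probe differed from LPS by -1.07 after LOC1 and by -1.37 after LOC3, so the 2 probes of Irf2 gave unequal differences. Spot noise was larger for this dim probe, at 0.29 and 0.33, and the mean of both probes was -0.41 with LOC1 and -0.53 with LOC3. The direction of Irf2 as a gene therefore depends on which probe stands for it, and whether either probe is specific to its transcript was not tested.

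Irf8, which maintains macrophage identity and works with the factor Spi1 (PU.1), was lower with both strains on both probes. The brighter Irf8 probe, of NM_008320 at chr8:123280324-123280383 (mm9, + strand), gave intensities of 8072.6 on the LPS array, 4655.2 after LOC1 and 5745.0 after LOC3. It was 1.6-fold lower with LOC1, a log2 difference of -0.68, and 1.31-fold lower with LOC3, a difference of -0.39. The dimmer Irf8 probe, of ENSMUST00000162775 at chr8:123267009-123267068, read 631.4, 164.7 and 197.5. On that probe the level was 3.55-fold lower with LOC1 and 2.98-fold lower with LOC3, differences of -1.83 and -1.57. LPS was the highest, LOC3 came next and LOC1 was the lowest on both probes, with LOC1 below LOC3 by 0.29 on the brighter probe, which is past spot noise, and by 0.25 on the dimmer one, which is not. Of all genes compared, 8.94% were lower by more than Irf8 with LOC1 and 16.0% with LOC3.

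Levels of other macrophage genes moved beside Irf8, and their part in the result was not tested. Csf1r, the receptor for the macrophage growth factor, differed by -0.89 with LOC1 and -0.70 with LOC3, Itgam by -0.54 and -0.30, and Lyz2 by -0.29 and -0.11. Adgre1 was the other way, at 0.57 and 0.38, while Cd14, Fcgr1 and Mpeg1 stayed between 0.04 and 0.14, and Cd68 was at 0.30 and 0.27. Spi1 gave intensities of 2641.4 on the LPS array, 1699.5 after LOC1 and 1786.3 after LOC3, differences of -0.52 and -0.46.

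Irf4, which in macrophages and dendritic cells is linked to alternative activation, was dim. Both probes are of NM_013674, at chr13:30856460-30856519 and chr13:30858532-30858591 (mm9, + strand). The brighter Irf4 probe gave intensities of 113.0 on the LPS array, 51.1 after LOC1 and 11.8 after LOC3, the last not well above background. LOC1 lay 2.05-fold below LPS, and LOC3 lay below it by at least 5.3-fold. Between the strains, Irf4 was at least 2.59-fold higher with LOC1 than with LOC3, the only one of the 8 genes at least 2-fold different there, beside 0.8% of 19381 genes at least 2-fold higher and 1.83% lower. Dim signals of Cd209a and Epcam were well above background on the LPS array alone, whereas that of Irf4 was so after LOC1 too. The part of Cd209a and Epcam in this result was not tested. Each of these differences of Irf4 rests on 1 spot per array, and the LOC1 difference, at -1.03, lies just past the 2-fold line with a technical SD of 0.29. The dimmer Irf4 probe, at intensities of 4.95, 9.64 and 6.3, was well above background on no array and gives no value. The LOC1 difference of Irf4 came under 2-fold with median scaling, at -0.82, with quantile normalization, at -0.90, and with normexp background correction, at -0.46. Normexp also brought the LOC3 difference to -1.01 and the difference between the strains to 0.55.

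Against unchallenged macrophages, the deposited log2 ratios listed 5 of the 8 genes as at least 2-fold higher with LPS, where 9.7% of all gene names have a probe so listed. That table holds probes with a difference of 2-fold or more on 1 of the arrays, and not every such probe is in it, so a gene that is not listed has no value. Irf7 had the largest ratio of the 5 genes listed with LPS, 7.03 on the log2 scale, or 130.5-fold, by its dimmer probe. On the arrays with lactobacilli it was 7.61 with LOC1 and 7.58 with LOC3. The unchallenged level implied for that Irf7 probe was an intensity of 54.7, above the lowest signal well above background of 16.3.

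Irf1, listed on its brighter probe only, was 9.46-fold higher with LPS than unchallenged, a log2 ratio of 3.24, and at 3.72 with LOC1 and 3.64 with LOC3. Irf9 was 5.37-fold and 5.62-fold higher on its 2 probes with LPS, and its log2 ratios with the strains lay between 2.32 and 2.48. These 3 genes, Irf7, Irf1 and Irf9, thus stood far above the unchallenged level on all 3 arrays. The dimmer Irf5 probe was 2.06-fold higher with LPS, at a log2 ratio of 1.04, and at 1.35 with LOC1 and 1.51 with LOC3.

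Irf2 was listed as higher with LPS only on its dimmer probe, at 1.26. The blank cells of listed probes were rebuilt from the intensities. The dimmer Irf2 probe was then at 0.22 with LOC1 and -0.07 with LOC3, near the unchallenged level. Its brighter probe was at 0.70 with LPS and 0.99 with LOC1 when rebuilt, and was listed at 1.04 with LOC3. Irf8 ran the other way and was listed as at least 2-fold lower than unchallenged only on the arrays with lactobacilli, with 2 of the 16 Irf probes so listed on each, beside 8.52% of all probes with LOC1 and 8.88% with LOC3. Its brighter probe was at -0.75 with LPS when rebuilt, -1.40 with LOC1 and -1.10 with LOC3, and its dimmer probe at -0.50, -2.29 and -2.04. No probe of Irf3 or Irf4 was listed, nor were the brighter probes of Irf5 and Irf7 and the dimmer probe of Irf1.

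**Figure D3:**
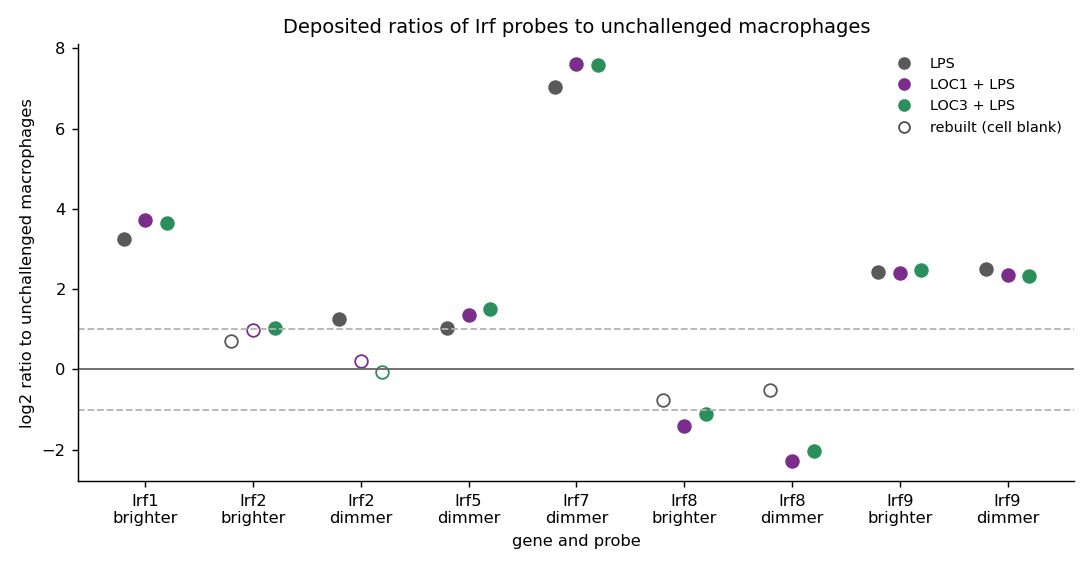
Deposited log2 ratio to unchallenged macrophages (y axis) for the 9 Irf probes listed on at least 1 array, with filled circles for listed values and open circles for values rebuilt where the cell is blank. Dashed lines mark 2-fold. The dimmer Irf7 probe lies at 7.03 to 7.61, both Irf8 probes lie below 0 on all arrays, and the dimmer Irf2 probe comes down from 1.26 with LPS to -0.07 with LOC3.

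The genes around the Irf proteins were read from 6 lists with 102 genes on the arrays, of which 14 of 96 compared were at least 2-fold higher with LOC1 and 12 of 95 with LOC3, beside 2.49% and 2.97% of all genes. At least 2-fold lower were 4 with LOC1 and 3 with LOC3, beside 3.81% and 3.18%. By the brightest probe, none of the 21 genes of upstream signalling passed 2-fold in either direction with either strain, with medians of 0.07 with LOC1 and 0.17 with LOC3. Among them are the kinases that phosphorylate Irf3 and Irf7. Tbk1 gave intensities of 1148.4 on the LPS array, 1157.2 after LOC1 and 1224.8 after LOC3, differences of 0.12 and 0.20. Ikbke read 6315.0, 3942.7 and 4292.9, differences of -0.57 and -0.45. Its 2 probes differed in size, from -1.73 to -0.57 with LOC1 and from -1.06 to -0.45 with LOC3. The lowest of the 3 probes of Irak2, also in this list, was at -1.01 with LOC1 and -1.09 with LOC3.

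Of the 15 partners and regulators of Irf proteins, 0 passed 2-fold with either strain, with medians of 0.05 and 0.00. Stat2, a partner of Irf9, gave intensities of 16456.7 on the LPS array, 17143.6 after LOC1 and 18294.7 after LOC3, differences of 0.17 and 0.26. It lay slightly above the LPS array with both strains, unlike the brighter probe of Irf9. Batf, which pairs with Irf4, was at 23.8 with LPS and at background after LOC1 or LOC3.

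The list of type I interferon genes, which Irf3 and Irf7 switch on, and of their receptor had the largest medians of the 6 lists. With LOC1, 12 of its 14 genes compared were at least 2-fold higher, and with LOC3 10 of 13, with medians of 3.03 and 2.29. Ifnb1, encoding interferon beta, gave intensities of 1251.2 on the LPS array, 29911.3 after LOC1 and 18122.5 after LOC3, a 25.8-fold and a 15.6-fold higher level. Ifna12 gave only background signal on the LPS array and read 378.5 with LOC1 and 141.6 with LOC3, at least 25.1-fold and at least 9.32-fold higher. Ifna13 was likewise at background with LPS and read 312.7 and 119.8, at least 20.7-fold and at least 7.89-fold higher. All 3 were highest with LOC1, whereas Irf7 was highest with LOC3 on its brighter probe and with LOC1, by 0.03, on its dimmer one. The Ifna genes are near-identical copies, so a probe of one may read others.

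Among 20 interferon-stimulated genes, 2 were at least 2-fold higher with each strain and 0 lower, with medians of 0.48 and 0.51 near the differences of Irf7. Ifit3 read 12660.3 with LPS, 33122.1 with LOC1 and 28854.1 with LOC3, levels 2.83-fold and 2.45-fold higher. Cmpk2 read 56135.0, 112599.8 and 110162.4, levels 2.17-fold and 2.11-fold higher. All 20 of these genes had a probe listed as at least 2-fold higher with LPS than unchallenged.

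Of the 18 compared genes known to need Irf1 or Irf8, 0 were at least 2-fold higher and 1 was at least 2-fold lower with each strain, with medians of 0.31 and 0.34. The lower one was Il12b, a cytokine subunit gene that Irf1 and Irf8 activate, at intensities of 754.2 on the LPS array, 166.1 after LOC1 and 203.5 after LOC3. It was 4.2-fold lower with LOC1 and 3.45-fold lower with LOC3, and like Irf8 it was lowest with LOC1.

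Of the 8 compared genes linked to Irf4, 3 were at least 2-fold lower with LOC1 and 2 with LOC3, by the brightest probe, beside 3.81% and 3.18% of all genes. The medians were -0.56 and -0.48. Ccl22, counted with LOC1 only, read 38.3 with LPS and only background signal with either strain. Its differences of -1.29 and -0.85 are bounds, set by lowest signals well above background of 14.5 with LOC1 and 19.8 with LOC3. Ccl17, a chemokine of alternative activation, read 1296.8 with LPS, 53.7 with LOC1 and 51.2 with LOC3, a 22.4-fold and a 23.6-fold lower level. Mrc1, the mannose receptor, read 53.3 with LPS and only background signal after LOC1 or LOC3, a level lower by at least 3.4-fold and at least 2.43-fold. The list gene nearest to Irf4 over its 2 differences from LPS was Il12b, at a distance of 1.21 among 87 genes, followed by Ifnar1 at 1.70 and Mgl2 at 1.75. None lay close, and the LOC3 difference of Irf4 used for the distance is a bound. As scaling checks, Actb differed from LPS by 0.03 and 0.08, and Gapdh by 0.26 and 0.31.

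**Figure D4:**
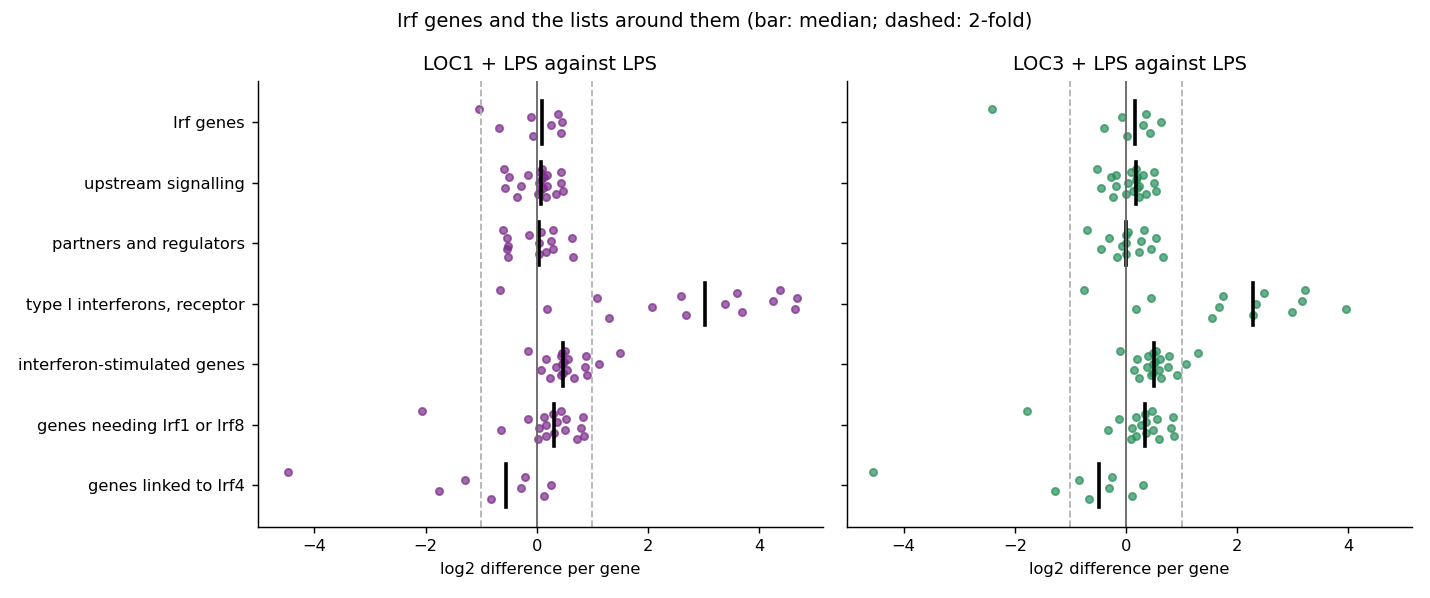
Log2 difference from the LPS array (x axis) of each Irf gene and of each gene of the 6 lists, with LOC1 (left) and LOC3 (right), 1 point per gene by its brightest probe, bounds included, with a black bar at the median and dashed lines at 2-fold. The medians of the Irf genes lie near 0, at 0.10 and 0.16, those of the interferon genes and their receptor at 3.03 and 2.29, and those of the genes linked to Irf4 at -0.56 and -0.48.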

How the data were processed

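RNA of RAW264.7 macrophages from 3 conditions was labelled with Cy3 and hybridised to 3 one-colour Agilent mouse arrays, with 1 array per condition. From the scans, the authors computed a spot intensity with Feature Extraction 12.0.3.1, less background and spatial trend, and deposited it without normalization between arrays. The authors deposited log2 ratios to unchallenged macrophages, made in GeneSpring, with cells under 2-fold blank. The submitters' processing notes also name limma and R 3.2.5. Probe positions are those of mm9 per the file headers.

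The log2 intensity less the array's 75th percentile over non-control spots was compared between arrays. Scanner outlier spots, 118 to 135 per array, were left out, and 0 spots were saturated. Genes well above background on at least 1 array of a pair were compared, by the brightest probe, with a threshold of 2-fold. Signals not well above background were raised to the lowest that was, 16.3 on the LPS array, 14.5 on the LOC1 array and 19.8 on the LOC3 array, and the difference is then a bound, written as at least. The technical SD was read from probes printed 10 times, 249 to 250 bright and 10 to 12 dim per array. The number of arrays limits the precision. The procedure was tested on simulated data.

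Blank cells were rebuilt by a constant shift per pair of arrays between deposited ratios and intensities. Over 5510 to 7201 probes, 0 to 3 deviated from that shift by over 0.01. Named list genes are those past 2-fold with both strains, at most 3 per list, with Stat2, Spi1, Batf, Tbk1, Ikbke, Actb, Gapdh and the 3 genes nearest to the Irf gene of largest LOC1 difference. Csf1r and the other markers come from a list of cell types. Some genes of the lists are not reported here. The genes, lists and tests were chosen with earlier results of these data known. Python 3.11.15, numpy 2.4.6, pandas 2.3.3, matplotlib 3.10.9, R 4.3.3 and limma 3.58.1 were used, limma for normexp correction with an offset of 50. The t-test of the methods needs replicates and was left out. Alternatives were median scaling, another probe set for the percentile, quantile normalization, normexp, no floor or filter, both arrays above background, the mean of detected probes, outlier spots kept, a 3-fold threshold and the deposited ratios.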

Additional observations from a re-analysis of the deposited data

How the results depend on the processing

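No paired analysis was possible because each condition has 1 array. With LOC1, where 1 of the 8 Irf genes passed 2-fold, 0 did under median scaling, quantile normalization, normexp or a 3-fold threshold, and 2 did with the mean of the detected probes. In the deposited ratios 0 of 4 did, but Irf4, the gene that passed, has no value there. With LOC3, where 1 passed, 0 of 7 did among genes above background on both arrays and 0 of 4 in the deposited ratios, both without a value for Irf4. Between the strains, where 1 passed, 0 did under normexp or a 3-fold threshold. Of the genes above background on both arrays 0 of 7 did, and in the deposited ratios 0 of 5, again without a value for Irf4. The median LOC1 difference of 0.10 was 0.32 under median scaling, -0.11 with the mean of probes and 0.39 in the deposited ratios. The median LOC3 difference of 0.16 was 0.34, -0.10 and 0.44 in that order, 0.08 under quantile normalization, 0.09 under normexp and 0.30 with both arrays above background. With the second brightest probe, chosen as an alternative after the data were seen, 2 of 7 genes passed with each strain and 0 between strains, and the medians were -0.13, -0.11 and 0.03. On the lists, the 14 genes higher with LOC1 were 9 with both arrays above background and 6 in the deposited ratios, and the 12 with LOC3 were 6 in the latter. The 4 genes lower with LOC1 were 2 under normexp and with both arrays above background, and the 3 with LOC3 were 5 without floor and filter. The 5 genes higher with LOC1 than LOC3 were 3 under normexp and 0 at 3-fold. The cause was not tested. In each alternative that gave them a value, Irf1, Irf5 and Irf7 had differences above 0 from LPS and Irf8 and Irf4 below 0. With LOC1, Irf7 lay between 0.36 and 0.67, and Irf8 between -1.25 and -0.46, or at -1.83 with the second brightest probe. With LOC3, Irf7 lay between 0.47 and 0.81, and Irf8 between -0.98 and -0.20, or at -1.57 with the second brightest probe. Neither Irf8 nor Irf4 has a value against LPS in the deposited ratios. Over all genes, the 499 higher and 762 lower calls with LOC1 were 203 and 221 under normexp and 1434 and 2405 without floor and filter. The 588 and 629 with LOC3 were 242 and 164, and 1648 and 2131. The share of calls that were higher, 39.6% with LOC1 and 48.3% with LOC3, was 65.2% and 68.7% under median scaling. It was 50.7% with LOC1 and 58.0% with LOC3 under quantile normalization, and with LOC3 59.6% under normexp and 63.8% at 3-fold. Dim signal limits Irf4 and the dimmer probes of Irf2 and Irf8.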
